A study of Homo sapiens with 12 samples.

Results

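The genes described here are the D-type cyclins CCND1, CCND2 and CCND3, the E-type cyclins CCNE1 and CCNE2, the kinases CDK4 and CDK6, and the kinase inhibitors CDKN2A, CDKN2C and CDKN1B. They were chosen by gene symbol, and all 10 were found among the 24528 genes of the deposited count table. RNA was sequenced from MIA PaCa-2, an established human pancreatic carcinoma line, in 12 libraries that form 4 groups of 3. The Msi1 knockdown carried a lentiviral short hairpin RNA (shRNA) against Musashi1 with a GFP tag, the Msi2 knockdown an shRNA against Musashi2 with a Tomato Red tag, the double knockdown both, and the control a scrambled shRNA. All cells were of this 1 line, were infected with lentivirus and were sorted after 72 hours. Not given in the sources used here were the number of shRNA sequences per gene and the tag of the control virus.

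D-type cyclins bind CDK4 or CDK6 early in G1 and begin to phosphorylate the retinoblastoma protein RB1, which holds E2F transcription factors in check. E-type cyclins then bind CDK2 and complete the passage into S phase. CDKN2A (p16, with p14ARF read from the same locus) and CDKN2C (p18) are INK4 proteins that block CDK4 and CDK6, while CDKN1B (p27) mainly restrains CDK2 complexes. Loss of CDKN2A is among the commonest lesions of pancreatic carcinoma, and MIA PaCa-2 is known as a line with both copies deleted. Musashi proteins bind mRNA, mostly in 3' untranslated regions (UTRs), at short sites around the letters UAG, and alter the translation or stability of the mRNA.

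Because the proteins of the 2 targeted genes read such sites, the richest 30-base stretch of the 3' UTR is shown for 4 members. These are 2 with many of the letters GTAG (CCND1, CDKN1B), CDK6 with the longest UTR, and CCND3 with few. The stretches come from the longest coding transcript in GENCODE 29 (GRCh38), are written 5' to 3' as DNA, and carry each TAG of the transcript strand in capitals.
CCND1, chr11:69651745-69651774, plus strand: atttttaaagTAGaagagggtttTAGgTAG
CCND3, chr6:41935474-41935503, minus strand: gaTAGacacatatgagggggaaTAGtcTAG
CDK6, chr7:92607486-92607515, minus strand: tgatTAGTAGatttgaatataTAGatgTAG
CDKN1B, chr12:12721989-12722018, plus strand: aggttcatgTAGagaaaagcacacttgTAG
The CDK6 stretch held TAG 4 times, those of CCND1 and CCND3 3 times and that of CDKN1B 2 times. Of 1082258 windows of 30 bases across annotated 3' UTRs, 28.9% held at least 1 TAG, 4.59% at least 2 and 0.44% at least 3. The stretches shown are the richest of all positions in their UTR, and a longer UTR offers more positions. The shares are for windows not so chosen, so they do not say how rare such a richest stretch is. The letters GTAG, each of which contains a TAG, occurred 17 times in the 3.19 kb UTR of CCND1 (5.33 per kb) and 7 times in that of CDKN1B (5.21 per kb), against a median of 2.28 per kb over 16552 genes. CDK6 had 38 in 10.2 kb (3.72 per kb), CCND3 had 1 (0.994 per kb), and CCNE1 and CDK4 had 0. A match of letters is a description and shows no binding.

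Promoter sequence was at hand for 7 members. CDK4, which is known as a target of MYC, is shown because its window held the E-box CACGTG 3 times. Only 0.094% of 35116 RefSeq promoter windows of 300 bases (GRCh38.p14, both strands searched) held 3 or more, and 7.26% held any. CDK4 was picked for these matches, so the shares do not say how rare they are. No member window held the E2F sequences searched, which 3.31% of all windows held. The 250 bases before the CDK4 start follow, minus strand, 5' to 3', with CACGTG and the GC box (GGGCGG, here read as CCGCCC) in capitals.
CDK4, chr12:57752311-57752560: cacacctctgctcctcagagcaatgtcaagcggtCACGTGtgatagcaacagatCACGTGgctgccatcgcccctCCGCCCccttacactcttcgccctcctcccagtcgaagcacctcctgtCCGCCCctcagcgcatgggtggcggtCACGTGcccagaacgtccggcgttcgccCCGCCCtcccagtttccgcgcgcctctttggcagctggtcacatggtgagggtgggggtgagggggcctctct
The CDK6 window nearest to its longest transcript held neither, while another CDK6 window held 1 E-box and 3 GC boxes. GC boxes, present in 45% of all windows, numbered 7 in the window of CCNE1 and 5, 4 and 0 in those of CCND3.

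Total estimated counts ran, in units of 1e6, from 26.8 to 38.9 (Msi1 knockdown), 39.7 to 53.01 (Msi2 knockdown), 39.9 to 56.1 (double knockdown) and 10.9 to 35.04 (control). MSI1 RNA averaged 1.84 ± 0.19 counts per 1e6 (CPM; SD, n = 3) after Msi1 knockdown and 1.71 ± 0.28 CPM after double knockdown, against 4.53 ± 0.40 CPM in control. MSI2 RNA averaged 14.97 ± 2.36 CPM after Msi2 knockdown and 11.8 ± 0.6 CPM after double knockdown, against 82.7 ± 3.1 CPM in control. Each single shRNA also went with a change of the other gene: MSI2 was lower after Msi1 knockdown (log2 -0.61, adjusted p = 6.8e-06) and MSI1 higher after Msi2 knockdown (0.41, adjusted p = 0.0244). The carcinoma genes KRT8, KRT18 and VIM together made 7123 to 9393 CPM in every library. Of 7 fibroblast markers only COL1A2 and COL3A1 were abundant, and after double knockdown 1 rose and 3 fell, with a sum of 549 to 642 CPM, against 603 to 739 CPM in control; the part of these genes in the results was not tested. Blood markers summed to at most 2.03 CPM and endothelial markers to at most 1.71 CPM. Along the main axis of spread between libraries of a group (the library trend, 54.1% of that spread), the double-knockdown libraries scored from -1.54 to -1.06 and the other 9 from -0.39 to 1.38. This trend and the double knockdown cannot be told apart. Values with the trend fitted are therefore given where they change a call or direction of a member, or a list count given here. Nothing says that the 3 libraries of a group were separate cultures, so the p-values reflect only how far these samples spread, and that spread may be technical.

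After Msi1 knockdown most members were lower: 7 of the 9 that could be tested fell and 0 rose. The genes that fell were CCND1, CCND2, CCNE1, CDK4, CDK6, CDKN2C and CDKN1B, cyclins and kinases as well as inhibitors. Calls here rest on edgeR's quasi-likelihood test with an adjusted p under 0.05 over all 15021 genes tested, of which 39.3% were called in that comparison, 20.9% lower and 18.5% higher. The median log2 change of the 9 members was -0.44, and that of all tested genes was 0.00 (-0.0018). In bulk RNA from sorted cells, fewer cells in a phase of the cell cycle and less RNA per cell cannot be told apart.

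After Msi2 knockdown the members went apart. CDK6 rose, CCND1 and CDKN2C fell, and 6 did not pass, against 30.3% of all tested genes called, 16.7% higher and 13.6% lower. After double knockdown CCND3 rose, CDK6, CDKN2C and CDKN1B fell, and 5 did not pass, against 51.9% of all tested genes called, 26.6% higher and 25.3% lower. The 3 falls after double knockdown were small and passed narrowly: the count of 4 members became 1 without double knockdown replicate 1, 2 without double knockdown replicate 2 and 1 without control replicate 3. CCND3 was called in each of these. The 3 comparisons share the control libraries.

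**Figure D1:**
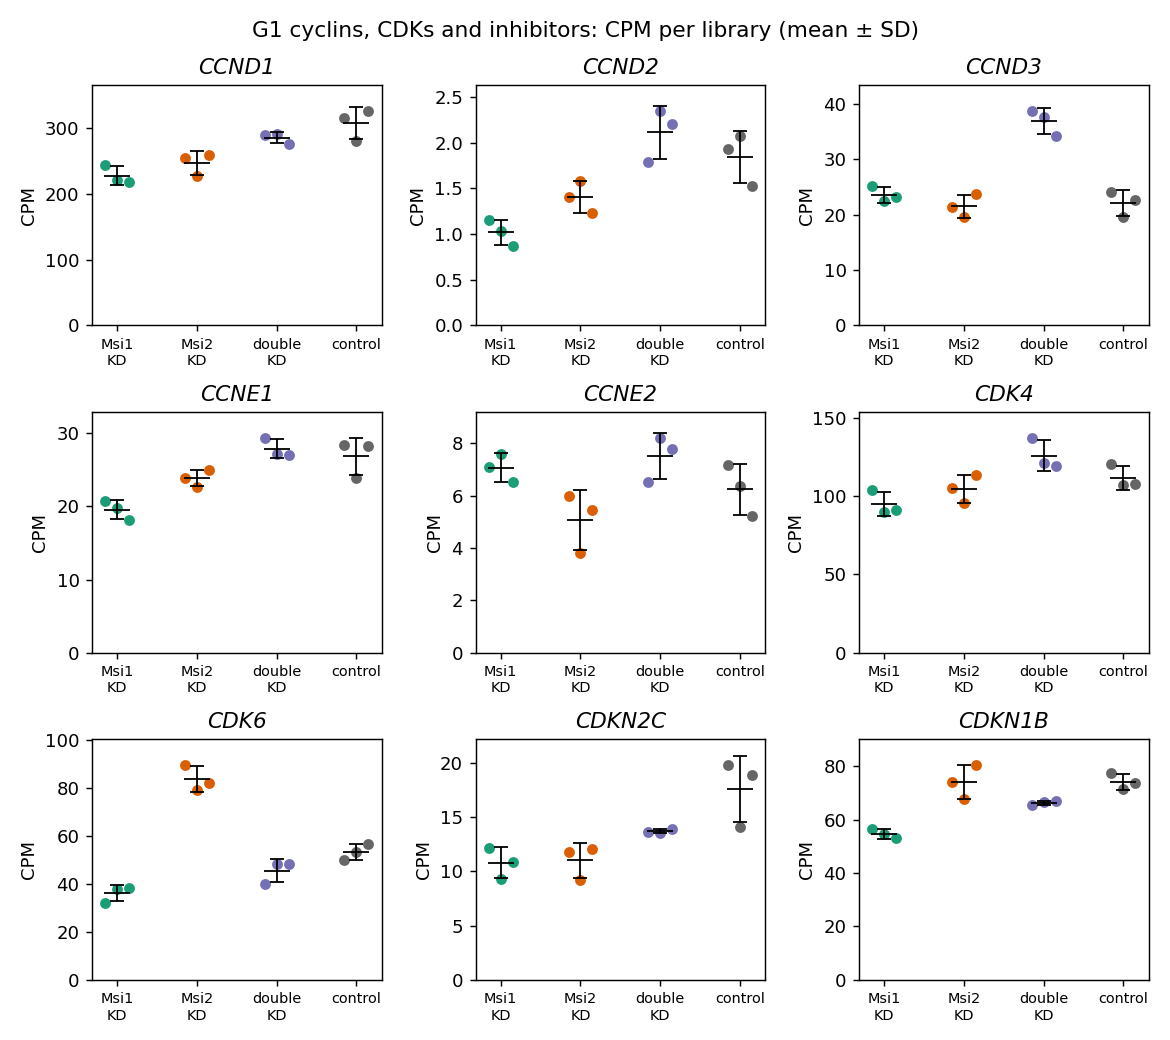
Level of 9 members in each library, in CPM on a linear axis from 0, with the mean and SD of 3 libraries per group; KD is knockdown. CDK6 stands highest after Msi2 knockdown (79.2 to 89.7 CPM) and CCND3 after double knockdown (34.3 to 38.8 CPM), in both cases above every library of the other groups.

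**Figure D2:**
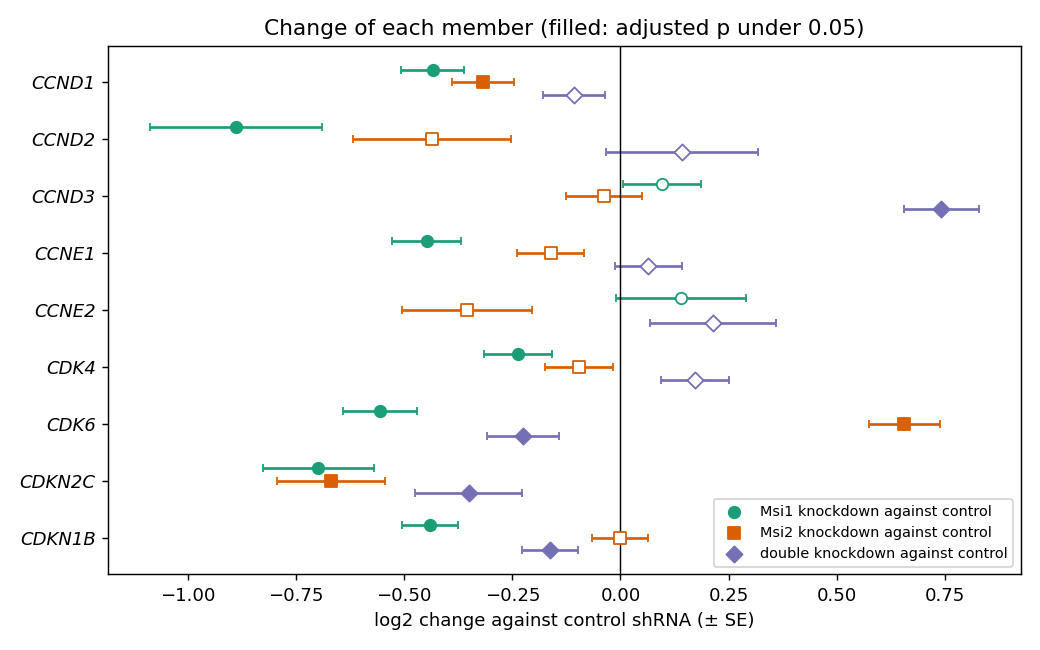
Log2 change of each member against control shRNA, with its standard error, in the 3 knockdowns; filled symbols have an adjusted p under 0.05. After Msi1 knockdown 7 symbols are filled and all lie left of 0, while CDK6 after Msi2 knockdown (0.66) and CCND3 after double knockdown (0.74) lie furthest right.

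Among the D-type cyclins, CCND1 was by far the most abundant per length of transcript. Divided by the longest transcript in kb, the control mean was 71.45 CPM per kb for CCND1, 9.24 for CCND3 and 0.28 for CCND2. CCND1, the D-type cyclin most often amplified in carcinomas, had 244, 221 and 218 CPM after Msi1 knockdown, 255, 226 and 259 CPM after Msi2 knockdown and 289.7, 291 and 276 CPM after double knockdown, against 316, 281 and 326 CPM in control. All libraries of both single knockdowns lay below all control libraries, and those of the double knockdown overlapped control. The log2 change was -0.43 ± 0.07 after Msi1 knockdown (adjusted p = 9.0e-05, a standard error after each change) and -0.32 ± 0.07 after Msi2 knockdown (adjusted p = 0.0024). The double knockdown differed from control by -0.11 ± 0.07 (95% interval -0.26 to 0.04, adjusted p = 0.22). It was higher than the Msi1 knockdown by 0.33 ± 0.07 (adjusted p = 9.0e-04) and than the Msi2 knockdown by 0.21 ± 0.07 (adjusted p = 0.0225). With the library trend fitted these differences were -4.4e-04 (adjusted p = 0.998) and -0.0255 (adjusted p = 0.822). The last call was lost without Msi2 knockdown replicate 2 (0.154) and without double knockdown replicate 1 (0.0724) or 2 (0.0897). With the library trend fitted CCND1 was lower after double knockdown than in control too (-0.30, adjusted p = 3.7e-05). This change also passed under the stricter filter (-0.16, adjusted p = 0.0383).

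CCND3, the D-type cyclin best known from lymphoid cells, kept a different order. It had 38.8, 37.6 and 34.3 CPM after double knockdown, against 24.1, 19.5 and 22.7 CPM in control. The Msi1 knockdown had 25.2, 22.4 and 23.2 CPM and the Msi2 knockdown 21.3, 19.6 and 23.7 CPM. Both single knockdowns overlapped control, and every double-knockdown library lay above all other libraries. Its rise after double knockdown was 0.74 ± 0.09 (1.67-fold, adjusted p = 1.3e-06), and 0.49 with the library trend fitted (adjusted p = 1.3e-05). The changes in the single knockdowns were 0.10 ± 0.09 for Msi1 (95% interval -0.09 to 0.28) and -0.04 ± 0.09 for Msi2 (95% interval -0.22 to 0.15). With that covariate CCND3 passed after Msi1 knockdown as well (0.25, adjusted p = 0.004).

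CCND2 was a minor transcript, with 17 to 102 estimated counts per library. Its libraries held 1.15, 1.03 and 0.872 CPM after Msi1 knockdown, against 1.93, 2.07 and 1.53 CPM in control, and these did not overlap. The fall was -0.89 ± 0.20 (adjusted p = 0.0014), the largest fold among the members in that comparison. After Msi2 knockdown it had 1.41, 1.59 and 1.23 CPM (-0.43 ± 0.18, adjusted p = 0.0798, and 0.0327 with the library trend fitted) and after double knockdown 1.79, 2.35 and 2.20 CPM (0.14 ± 0.18, adjusted p = 0.53). Between the double and the Msi1 knockdown CCND2 differed by 1.03 ± 0.18 (2.04-fold, adjusted p = 1.4e-04), and this difference still passed with the library trend fitted, alone among the members in that comparison.

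The order of the groups differed between the E-type cyclins. CCNE1 had 20.7, 19.7 and 18.2 CPM after Msi1 knockdown, against 28.4, 23.9 and 28.2 CPM in control, with no overlap. It fell there by 0.45 ± 0.08 on the log2 scale (adjusted p = 1.7e-04). The Msi2 knockdown had 23.9, 22.7 and 25.02 CPM (-0.16 ± 0.08, adjusted p = 0.13), a difference that passed without control replicate 2 (-0.26, adjusted p = 0.0216) and under the stricter filter (adjusted p = 0.0487). The double knockdown had 29.4, 27.2 and 27.1 CPM (0.06 ± 0.08, 95% interval -0.10 to 0.23, and -0.12 with the library trend fitted) and overlapped control.

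CCNE2, at a control mean of 1.875 CPM per kb of transcript against 13.13 for CCNE1, was the scarcer E-type cyclin. It had 7.10, 7.60 and 6.50 CPM after Msi1 knockdown, 5.998, 3.79 and 5.44 CPM after Msi2 knockdown and 6.51, 8.20 and 7.77 CPM after double knockdown, against 7.15, 6.37 and 5.21 CPM in control. Each knockdown overlapped control, and none of the 3 changes passed (0.14 ± 0.15, -0.36 ± 0.15 and 0.21 ± 0.15). The Msi2 change passed without Msi2 knockdown replicate 1 (-0.48, adjusted p = 0.0374). The Msi2 knockdown was lower than the Msi1 knockdown by 0.50 (log2 change of -0.50 ± 0.14, adjusted p = 0.0088), and CCNE1 went the other way in that comparison (0.29 ± 0.08, adjusted p = 0.0054), a call lost without Msi1 knockdown replicate 3 (0.0533).

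CDK4 and CDK6, the kinases that D-type cyclins activate, had different orders of the groups. CDK6 had 89.7, 79.2 and 82.2 CPM after Msi2 knockdown, against 50.03, 53.5 and 56.6 CPM in control. It had 32.3, 37.7 and 38.5 CPM after Msi1 knockdown and 39.98, 48.2 and 48.3 CPM after double knockdown. The 4 groups did not overlap: the Msi2 knockdown was highest, then control, then the double and then the Msi1 knockdown. The rise after Msi2 knockdown was 0.66 ± 0.08 (1.58-fold, adjusted p = 7.0e-06) and the fall after Msi1 knockdown -0.56 ± 0.08 (adjusted p = 3.4e-05). Between these, the Msi2 knockdown stood 2.32-fold above the Msi1 knockdown (log2 1.21 ± 0.08, adjusted p = 1.7e-09). The double knockdown was below the Msi2 knockdown by -0.88 ± 0.08 (adjusted p = 2.1e-07) and above the Msi1 knockdown by 0.33 ± 0.08 (adjusted p = 0.0024, and 0.48 with an adjusted p of 0.0794 with the library trend fitted). Its fall against control (-0.23 ± 0.08, adjusted p = 0.0298) was lost without double knockdown replicate 1 (-0.13, adjusted p = 0.203), control replicate 2 (0.0546) or control replicate 3 (0.0863), and with the trend fitted (-0.13, adjusted p = 0.383).

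CDK4 had smaller differences. It had 104, 89.7 and 91.3 CPM after Msi1 knockdown, 105, 95.6 and 114 CPM after Msi2 knockdown and 137, 121 and 119.5 CPM after double knockdown, against 121, 107 and 108 CPM in control. The Msi1 libraries lay below all control libraries, and the other groups overlapped control. The fall after Msi1 knockdown was -0.24 ± 0.08 (adjusted p = 0.0226). It was lost without Msi1 knockdown replicate 2 (0.116) or 3 (0.113), without control replicate 1 (0.178), and with the library trend fitted (-0.10, adjusted p = 0.148). After Msi2 knockdown the change was -0.10 ± 0.08 (95% interval -0.26 to 0.07). After double knockdown it was 0.17 ± 0.08 (95% interval 0.01 to 0.34, adjusted p = 0.0733) and passed without control replicate 1 (0.0465), without Msi1 knockdown replicate 1 (0.035) and in a model of these 2 groups alone (0.0238). It was -0.05 with the library trend fitted (adjusted p = 0.601).

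Ratios between 2 members in a library do not depend on how libraries are scaled. The ratio of CDK6 to CDK4 counts was 0.852, 0.828 and 0.724 after Msi2 knockdown, against 0.415, 0.499 and 0.526 in control. It was 0.310, 0.4203 and 0.422 after Msi1 knockdown and 0.291, 0.398 and 0.404 after double knockdown. Every Msi2-knockdown library thus lay above all others, and the mean ratio was 1.67-fold that of control. CCND3 to CCND1 was 0.104 ± 0.003, 0.0871 ± 0.0040 and 0.129 ± 0.005 after Msi1, Msi2 and double knockdown, against 0.0718 ± 0.0039 in control (SD, n = 3), and no 2 of the groups overlapped. CCNE2 to CCNE1 was 0.362 ± 0.022 after Msi1 knockdown, against 0.234 ± 0.044 in control. These differences without overlap each had an exact permutation p of 0.1 (two-sided), the smallest that 20 splits of 3 against 3 allow, and 0.15 adjusted over the 24 ratio comparisons.

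**Figure D3:**
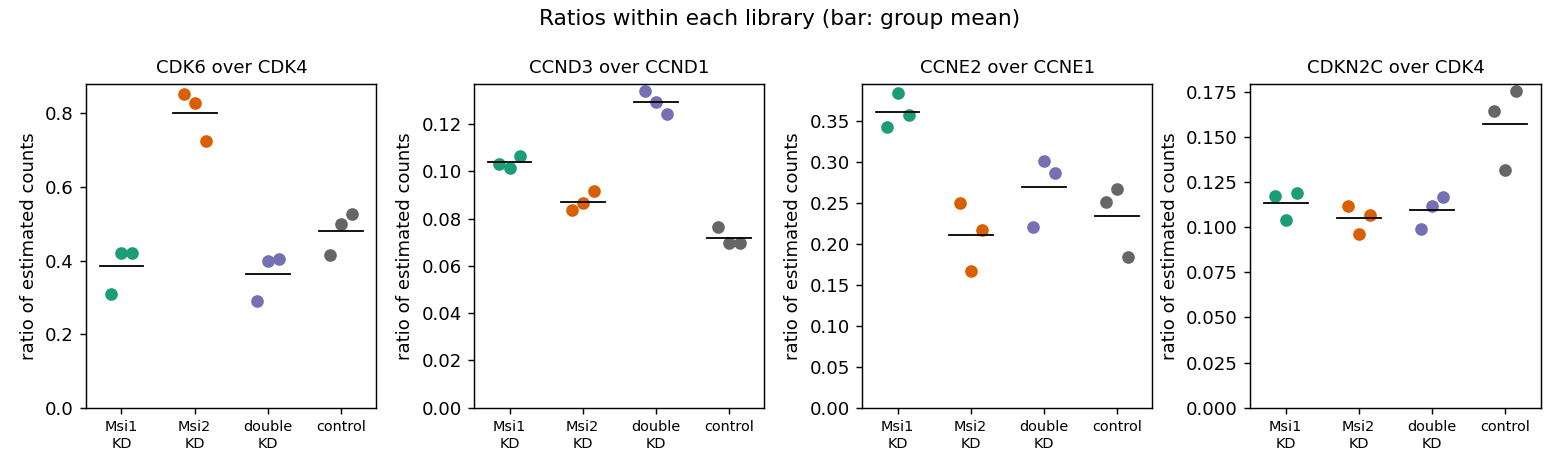
Ratio of estimated counts of 2 members within each library, on linear axes from 0, with the group mean as a bar; KD is knockdown. CDK6 over CDK4 is 0.724 to 0.852 after Msi2 knockdown and at most 0.526 elsewhere, and CDKN2C over CDK4 is lower in every knockdown library than in every control library.

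Of the inhibitors, CDKN2A was all but absent. It had 0 counts in every library except double knockdown replicate 2, which had 1, and so was not tested. Over the 3 control libraries a count of 0 allows up to 0.0396 CPM, and over the Msi1 and Msi2 knockdowns up to 0.0295 and 0.0207 CPM, for counting error only. CDKN2B, its neighbour at the same locus and another INK4 inhibitor, had 0 or 1 count in each library.

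CDKN2C, an INK4 inhibitor that was expressed, was lower in all knockdowns. It had 12.2, 9.32 and 10.9 CPM after Msi1 knockdown, 11.8, 9.18 and 12.1 CPM after Msi2 knockdown and 13.6, 13.6 and 13.9 CPM after double knockdown, against 19.8, 14.1 and 18.9 CPM in control. Control replicate 2 was the lowest control library, and each knockdown library lay below it. The falls were -0.70 ± 0.13 after Msi1 knockdown (adjusted p = 2.8e-04), -0.67 ± 0.13 after Msi2 knockdown (adjusted p = 5.1e-04) and -0.35 ± 0.12 after double knockdown (adjusted p = 0.0241). The last was lost without double knockdown replicate 1 (0.0676) or 2 (0.054) and without control replicate 1 (0.21) or 3 (0.0597), but with the library trend fitted it was larger (-0.74, adjusted p = 1.2e-06). Per count of CDK4, CDKN2C stood at 0.113, 0.105 and 0.109 after Msi1, Msi2 and double knockdown, against 0.157 in control.

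CDKN1B, whose protein level is set largely by degradation, had 56.4, 54.5 and 52.98 CPM after Msi1 knockdown, against 77.4, 71.3 and 73.6 CPM in control. The Msi2 knockdown had 74.2, 67.8 and 80.4 CPM and the double knockdown 65.3, 66.7 and 66.8 CPM. The Msi1 knockdown lay below all other libraries, and the Msi2 knockdown overlapped control. CDKN1B fell by 0.44 ± 0.07 on the log2 scale after Msi1 knockdown (adjusted p = 2.5e-05), and the difference after Msi2 knockdown was 0.00 (95% interval -0.14 to 0.13). The double knockdown differed from control by -0.16 ± 0.06 (adjusted p = 0.0419). That call was lost without Msi1 knockdown replicate 3 (0.0675), Msi2 knockdown replicate 1 (0.0723), control replicate 1 (0.199) or 3 (0.0592), double knockdown replicate 1 (0.117), 2 (0.0656) or 3 (0.0626), and without the low-count filter (0.0846). The fall was larger with the library trend fitted (-0.30, adjusted p = 3.3e-04).

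Between knockdowns, adding the Msi2 shRNA to the Msi1 shRNA went with higher levels. Of the 9 members, 8 were higher after double than after Msi1 knockdown and 0 lower, while CCNE2 did not pass (0.07 ± 0.14), against 56% of all tested genes called, 29.9% higher and 26.2% lower. The call of CDKN2C (0.35) was lost without Msi1 knockdown replicate 2 (0.177) or 3 (0.0687), without double knockdown replicate 1 (0.0535), 2 (0.0639) or 3 (0.075), and under the stricter filter (0.0628). With the library trend fitted the count was 1, CCND2, and 718 of all tested genes were called. CDKN2C was then at -0.28 (adjusted p = 0.292), CCND3 at 0.23 (0.233) and CCNE1 at 0.21 (0.300). CDK4 was at 0.054 (0.826) and CDKN1B at 0.051 (0.831). Against the Msi2 knockdown, the double knockdown had 7 members higher and 2 lower, CDK6 and CDKN1B (45.2% of all tested genes called, 22.7% higher and 22.5% lower). That count of 9 was 4 without double knockdown replicate 1, 5 without Msi2 knockdown replicate 2, 5 with libraries thinned to equal depth and 4 with the trend fitted. In the trend fit 2697 of all tested genes were called. CCNE1 was then at 0.0059 (adjusted p = 0.977), CCNE2 at 0.39 (0.221), CDK4 at 0.010 (0.946) and CDKN2C at -0.14 (0.447). Without Msi2 knockdown replicate 2 or double knockdown replicate 1 the calls of CCNE1 (0.0979 and 0.094), CDK4 (0.0635 and 0.0719) and CDKN2C (0.222 and 0.0863) were lost, and that of CDKN2C also without double knockdown replicate 2 (0.0859) or 3 (0.0992). CDKN1B (-0.16, adjusted p = 0.0437) lost its call under 14 of 20 alternatives, among them the omission of any 1 library other than Msi1 knockdown replicate 1, Msi2 knockdown replicate 2 and control replicate 2, with adjusted p up to 0.229, and was further from 0 with the trend fitted (-0.32, adjusted p = 0.0011). The Msi2 knockdown had CCNE1, CDK6 and CDKN1B higher and CCNE2 lower than the Msi1 knockdown (41.1% of all tested genes called, 22.3% higher and 18.9% lower). CCND2 joined them without Msi2 knockdown replicate 3 (0.0422) and CDK4 without Msi1 knockdown replicate 1 (0.0275). Fitting the trend kept the calls of CCNE1, CDK6, CDKN1B and CCNE2. CCND2 was then higher (0.53, adjusted p = 0.029) and CCND3 lower (-0.25, adjusted p = 0.0012) as well. The share of 41.1% is for the model without the trend.

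The double knockdown differed from the single knockdowns combined. Non-additivity, the log2 change after double knockdown less both single changes added together, was above 0 for 7 members and below 0 for CDK6, against 40.3% of all tested genes called, 21.3% above and 19.1% below. It was 1.46 ± 0.26 for CCND2, 1.02 ± 0.18 for CDKN2C and 0.64 ± 0.10 for CCND1 (adjusted p = 3.5e-04, 3.6e-04 and 1.4e-04). For these genes both single knockdowns stood below control, while the double knockdown stood nearer to control than either. The median over the 9 members was 0.64, and over all tested genes 0.01. With the library trend fitted only CCND2 passed (1.80, adjusted p = 0.0066), and 592 of all genes were called, in place of 6058. CDKN2C was then at 0.32 (adjusted p = 0.375) and CCND1 at 0.27 (adjusted p = 0.0844).

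**Figure D4:**
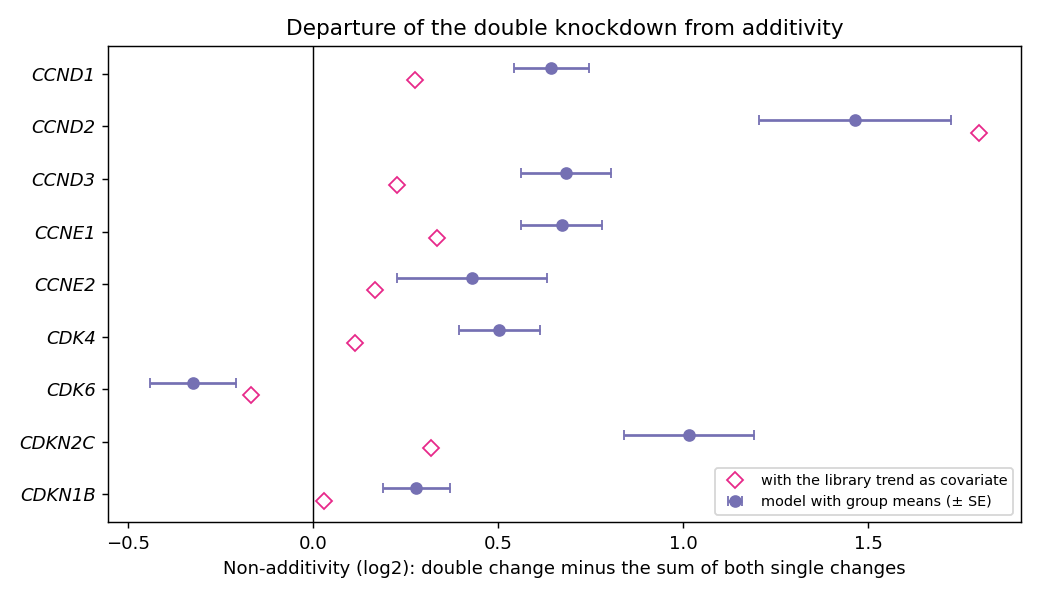
Non-additivity of each member on the log2 scale, from the model of group means (filled, with standard error) and with the library trend fitted (open). Without the covariate CCND2 lies furthest right at 1.46 and CDK6 is the one member below 0; with it all but CCND2 lie closer to 0.

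The genes most like the 3 members with the largest F statistic over the 4 groups were found by the root mean square difference of centred log2(CPM + 1) over the 12 libraries, among 9430 other genes of at least 10 CPM. For CDK6 they were UHMK1 (0.086), SPOPL (0.12) and LPAR3 (0.14), against a median of 0.47. UHMK1, a kinase that is known to phosphorylate p27, had 183, 412 and 250.2 CPM after Msi1, Msi2 and double knockdown, against 279.6 CPM in control. For CCND3 the nearest were HN1 (0.073), BIRC5 (0.079) and CDKN3 (0.083), and for CDKN1B they were SMAD2 (0.019), MLX (0.040) and DARS (0.045), against medians of 0.33 and 0.24.

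Other genes of the pathway were read from 6 lists, described by their counts and medians. Over all tested genes, 18.5% rose and 20.9% fell after Msi1 knockdown, and 16.7% and 13.6% after Msi2 knockdown. After double knockdown 26.6% of them rose and 25.3% fell. Of 16 E2F targets of the G1/S transition, 13 rose, 1 fell and 2 did not pass after double knockdown, with a median log2 change of 0.33 (-0.02 over all tested genes). They included RRM2, the small subunit of ribonucleotide reductase (1.03), the helicase subunit MCM6 (0.67) and the licensing factors CDT1 (0.59) and CDC6 (0.496). With the library trend fitted 7 rose and 2 fell. After Msi1 knockdown 2 rose and 3 fell, but 8 fell without Msi1 knockdown replicate 1 and 6 without control replicate 2. After Msi2 knockdown 2 rose and 3 fell. With the trend fitted 3 rose and 2 fell after Msi1 knockdown, and 4 rose and 4 fell after Msi2 knockdown. Of 7 tested genes in a list of other G1/S cyclins, kinases and their activators and chaperone, 6 rose after double knockdown and 0 fell, with or without the trend fitted. They were CCNA2 (0.66), CDK2 (0.35), CDK7 (0.37), its partner MNAT1 (0.52), the phosphatase CDC25A, which activates CDK2 (0.71), and the kinase chaperone CDC37 (0.32). Of the same 7, 2 rose and 0 fell after Msi1 knockdown, and 3 rose and 0 fell after Msi2 knockdown. Fitting the trend gave 4 rises and 0 falls after each single knockdown. Leaving out 1 library gave 1 to 2 rises after Msi1 knockdown and 0 to 3 after Msi2 knockdown.

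Other inhibitors and RB1 moved in more than one way. CDKN1A, which encodes the inhibitor p21, rose by 1.20, 0.54 and 1.95 after Msi1, Msi2 and double knockdown (adjusted p = 2.7e-08, 5.5e-04 and 2.6e-11). CDKN1C (-0.80) and CDKN2D (-0.72), the genes of p57 and p19, fell after Msi1 knockdown. CDKN3 averaged 49.3, 46.0 and 73.3 CPM after Msi1, Msi2 and double knockdown, against 41.0 CPM in control. Of the 4 tested genes in this list, 2 rose and 2 fell after Msi1 knockdown. After Msi2 knockdown 1 rose (2 with the library trend fitted) and 0 fell, and after double knockdown 2 rose and 0 fell. RB1 fell by 0.63 on the log2 scale after Msi1 knockdown (adjusted p = 4.1e-07). Its changes were -0.02 after Msi2 knockdown and -0.21 after double knockdown (adjusted p = 0.867 and 0.0128). Of the 3 RB family genes 2 fell after double knockdown, 1 without double knockdown replicate 1 and 0 without control replicate 1. With the library trend fitted 2 fell and 1 rose after double knockdown. After Msi2 knockdown 1 rose in that fit, and 0 were called without the trend. SKP2, the ubiquitin ligase subunit that targets p27, rose by 0.57, 0.21 and 0.75 in the 3 knockdowns, and its cofactor CKS1B by 0.81 after double knockdown (adjusted p = 2.7e-07). Of 10 E2F and DP factors, 3 rose and 3 fell after Msi1 knockdown, 2 rose and 3 fell after Msi2 knockdown, and 4 rose and 3 fell after double knockdown, where E2F1 rose by 0.52. Without control replicate 1 the counts of the Msi2 and double knockdown were 1 and 0, and 4 and 0. Without Msi2 knockdown replicate 2 or 3 the Msi2 counts were 1 and 2. With the library trend fitted the counts were 4 and 4 after Msi1, 2 and 4 after Msi2, and 4 and 3 after double knockdown. Of 11 genes of cyclin and p27 turnover, 2 rose and 4 fell after Msi1 knockdown, and 5 rose and 2 fell after double knockdown. With the library trend fitted these were 4 and 4, and 4 and 3. The list counts without the trend stand against 39.3%, 30.3% and 51.9% of all tested genes called after Msi1, Msi2 and double knockdown. Fitting the trend called 6430, 6391 and 5830 of the 15021 tested genes, in place of 5907, 4545 and 7796. In that fit 3146, 3464 and 3036 were higher and 3284, 2927 and 2794 lower.

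**Figure D5:**
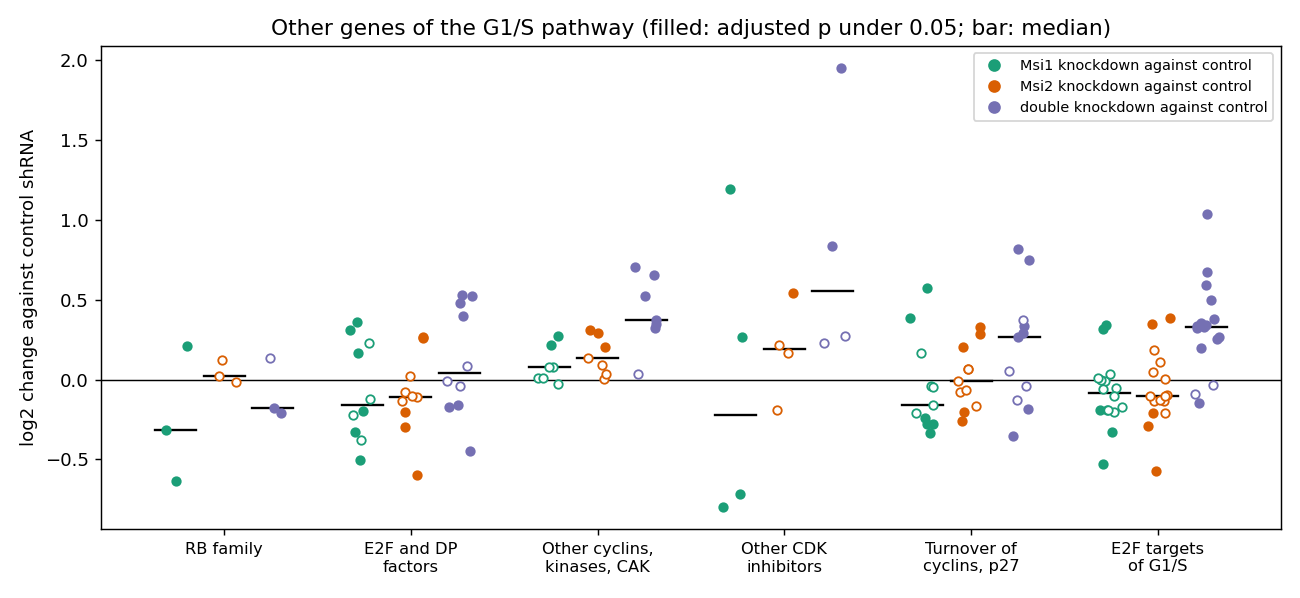
Log2 change of each tested gene of 6 pathway lists against control shRNA, with list medians as bars; filled points have an adjusted p under 0.05. The E2F targets of the double knockdown lie mostly above 0, with a median of 0.33, and CDKN1A is the highest point at 1.95.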

How the data were processed

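Per the labels, RNA of 12 libraries was sequenced, and groups came from the sample titles. The authors deposited estimated counts per gene, which are whole numbers without scaling. The submitters' processing notes name kallisto 0.42.1, CASAVA 1.4 and hg19 but no roles. Not given in the sources used here: transcript set, gene summing, filters. edgeR 4.0.16 (R 4.3.3) kept 15021 genes by filterByExpr (minimum count 10), with 9 of the 10 members. TMM scaled the libraries, which shared a single model of group means (8 residual degrees of freedom). Robust quasi-likelihood tests were two-sided, with Benjamini-Hochberg adjustment over all tested genes. A standard error is the log2 change over the square root of F. CPM use TMM-scaled totals. Alternatives were DESeq2 1.42.0, its size factors, no or a stricter filter (10 CPM in 3 libraries), compared groups only and thinned libraries. Others were the library trend as a covariate, a replicate block and each library left out. The trend weighted genes above 3 log2 CPM by the first component of within-group deviations. Each library was scored on values centred over all 12 libraries, so the score also holds differences between groups. Within a group, libraries differed beyond sampling noise (chi-square per degree of freedom 3.66 to 35.9). Named genes were the members, MSI1, MSI2, list genes called in a comparison with control and, for the 3 members with the largest F over the groups, the 3 nearest genes. Members and lists were chosen with earlier results of these data known. Lengths and UTRs came from GENCODE 29, promoters from RefSeq. The scripts were tested on simulated data.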

Additional observations from a re-analysis of the deposited data

Results flagged for a closer look

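For 8 members the effect of one shRNA differed with the presence of the other, by the test of non-additivity (edgeR, adjusted p under 0.05; log2 scale, n = 3 libraries per group). By the same test 40.3% of all 15021 tested genes were called. The values were 0.64 for CCND1, 1.46 for CCND2, 0.68 for CCND3, 0.67 for CCNE1, 0.50 for CDK4, -0.32 for CDK6, 1.02 for CDKN2C and 0.28 for CDKN1B. With the library trend fitted only CCND2 passed (1.80, adjusted p = 0.0066), and the adjusted p of the others was 0.0844 for CCND1, 0.408 for CCND3, 0.171 for CCNE1, 0.679 for CDK4, 0.722 for CDK6, 0.375 for CDKN2C and 0.934 for CDKN1B. The calls of CDK6 and CDKN1B were also lost on leaving out single libraries. CDK6 no longer passed without Msi1 knockdown replicate 2 (adjusted p = 0.0818) or 3 (0.0933), Msi2 knockdown replicate 1 (0.0977), double knockdown replicate 1 (0.107) or control replicate 1 (0.113). CDKN1B no longer passed without Msi1 knockdown replicate 2 (0.0588) or 3 (0.0708), Msi2 knockdown replicate 1 (0.0516) or 2 (0.0857), double knockdown replicate 2 (0.0548) or 3 (0.0532) or control replicate 1 (0.08). CCNE2, at 0.43, passed only without Msi2 knockdown replicate 1 (0.55, adjusted p = 0.0493) among the alternatives run.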

How the results depend on the processing

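Across 20 alternatives, 1112 of 1237 values of single members kept their direction and their side of the threshold, 85 lost and 16 gained a call, and 24 changed sign. Of the 24, 4 were of differences called in the model of group means, all with the library trend as a covariate: CCND1 at -4.4e-04 and CDKN2C at -0.28 in the double against the Msi1 knockdown, and CCND1 at -0.0255 and CDKN2C at -0.14 against the Msi2 knockdown. The other 20 were of differences not called. With the covariate they were CCND3 at 0.00495 and CDKN1B at 0.022 (Msi2 against control), CCNE1 at -0.12 and CDK4 at -0.0491 (double against control), CCNE2 at -0.185 (double against Msi1) and CDKN2C at -0.14 (Msi2 against Msi1). CCND2 was at -0.22 in thinned libraries (double against control), CDKN1B at 0.0075 without the low-count filter (Msi2 against control) and CDKN2C at -0.017 under the stricter filter (Msi2 against Msi1). Leaving out 1 library gave ranges across 0 for CCND3 (-0.14 to 0.0385) and CDKN1B (-0.0620 to 0.0556) in Msi2 against control, CCNE1 in double against control (-0.0377 to 0.12), CCNE2 in double against Msi1 (-0.015 to 0.18) and CDKN2C in Msi2 against Msi1 (-0.0861 to 0.14). With the trend covariate the genes called were 718 (members 1) in the double against the Msi1 knockdown, 2697 (members 4) against the Msi2 knockdown, and 592 (members 1) for non-additivity, in place of 8419, 6792 and 6058; for non-additivity 183 were higher and 409 lower, against 3192 and 2866. Thinned libraries gave 5 members in the double against the Msi2 knockdown. Leaving out 1 library gave 3013 to 4940 genes for Msi2 against control (4545; 3013 without control replicate 1), 1 to 5 members for double against control, and 4 to 9 for double against Msi2. The cause was not tested. Pairing by the replicate numbers of the titles is not stated and was mixed in the data: 10 of 18 same-numbered pairs had a correlation of deviations over 0.1 (range -0.54 to 0.70), and 7 of 12 libraries correlated best with their own number. Between Msi2 knockdown and control all 3 pairs were over 0.1 (0.18, 0.68 and 0.41), and the block changed no member's call there. The replicate block called 8175 genes in the double against control (7796 without it) and CDK4 there (adjusted p = 0.0254), and moved no count of calls by over 1.5 times. CCND2, at 17 to 102 counts per library, and CDKN2A are the members whose depth limits precision; the stricter filter left out CCND2, CCNE2 and CDKN2A. A model of the compared groups alone was not run for non-additivity, which uses all 4 groups.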
